A study of Saccharomyces cerevisiae with 12 samples.

Results

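The 9 genes described here encode the enzymes of upper glycolysis and of ethanol fermentation in budding yeast (Saccharomyces cerevisiae): HXK1 (YFR053C), HXK2 (YGL253W), GLK1 (YCL040W), PGI1 (YBR196C), PFK1 (YGR240C), PFK2 (YMR205C), PDC1 (YLR044C), PDC5 (YLR134W) and ADH1 (YOL086C). They were taken by name from the 6465 gene intervals counted in the study, whatever their values. A gene was tested where none of the 12 libraries was without a T>C read of it, a minimum met by 3677 genes. Of the 9 members 8 met it, and PDC5, which did not, is described by its counts. Each interval ran from the start codon to 250 bases past the stop codon (R64 assembly). The kinase genes were counted as HXK1 at chrVI:253342-255049, HXK2 at chrVII:23935-25645 and GLK1 at chrIII:50838-52590. The intervals of the next steps were PGI1 at chrII:611986-613900, PFK1 at chrVII:970521-973734 and PFK2 at chrXIII:671637-674766, and those of fermentation were PDC1 at chrXII:232140-234081, PDC5 at chrXII:410723-412664 and ADH1 at chrXV:159298-160594.

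Glucose is trapped in the cell by a kinase, of which yeast has 3: Hxk1, Hxk2 and the glucokinase Glk1. Pgi1 turns the glucose phosphate into fructose phosphate, and phosphofructokinase, built from the subunits Pfk1 and Pfk2, adds a further phosphate. At the end of the pathway pyruvate decarboxylase, mainly Pdc1 with Pdc5 as its reserve isozyme, makes acetaldehyde from pyruvate, and the alcohol dehydrogenase Adh1 reduces acetaldehyde to ethanol. On glucose these enzymes are among the most abundant proteins of the cell. HXK2 is the kinase gene used on glucose, whereas HXK1 and GLK1 are known as glucose-repressed genes, and PDC5 is known to be kept low while Pdc1 is present.

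SLAM-seq measures new RNA: cells take up 4-thiouracil (4tU), the base is alkylated with iodoacetamide, and it is then read as a T>C conversion. A T>C read carried at least 2 such conversions. All 12 libraries came from cells in glucose medium (YPD) whose Bdf1 and Bdf2, bromodomain factors of the BET family that act in transcription by RNA polymerase II, carried an auxin-inducible degron (BDF1-3xV5-mAID::URA3, BDF2-3xV5-mAID::KanMX) together with the auxin receptor pGPD1-OsTIR1:HIS3. The control strain (RDY73) had no further change, and the ET strain (RDY388, pJR15:TRP1) also overexpressed the extra-terminal (ET) domain of Bdf1 from the promoter of GPM1, itself a gene of lower glycolysis. Each strain received DMSO, the solvent, or 1 mM indole-3-acetic acid (IAA), which triggers degradation of the tagged proteins, for 25 min, followed by 5 mM 4tU for 4 min, with 3 biological replicates (A, B and C) in each of the 4 groups. Each genotype was represented by a single strain. Cells of fission yeast (Schizosaccharomyces pombe), labelled on their own, were added before RNA purification as a spike-in.

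Libraries held between 6279282 and 11395597 S. cerevisiae reads, of which 90321 to 330857 were T>C reads, and between 445036 and 722822 S. pombe reads. Replicate C of the DMSO-treated ET cells had the most S. cerevisiae reads per S. pombe read, 20.02, where the other libraries had no more than 17.56. TRP1, the marker of the ET construct, had 22 to 41 reads in the control strain with DMSO and 457 to 643 in the ET strain with DMSO. BDF1, whose ET-coding part and terminator the construct holds, had 65 to 86 T>C reads in the control strain with DMSO and 411 to 457 in the ET strain.

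The scale on which a change is measured matters for these genes. The study's methods take normalization factors from total read counts and do not say how they were computed. Here they were taken as median-of-ratios size factors from all S. cerevisiae reads, which holds the typical gene's total reads constant. On this scale the median log2 change in T>C reads over all genes tested was -0.46 after depletion in the control strain. When T>C reads were scaled by the S. pombe reads instead, that median was -1.78, and with the sum of S. cerevisiae reads it was -1.61. The median decrease that the study reports for this depletion, over its own set of genes, is larger than size factors give and nearer to these. Values are therefore given on the size-factor scale and on the S. pombe scale, named each time. The choice of genes moved the median as well. Requiring a T>C read in every library, IAA libraries included, leaves out genes that fell to 0 after depletion. With no such requirement (6214 genes) the size-factor median was -0.80 in the control strain and -0.66 in the ET strain. Medians and shares of all genes tested for T>C reads hold for the 3677 genes only.

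The stretch of DNA upstream of the start codon is shown for the 3 kinase genes and the pair of decarboxylase genes, because within these sets the genes differed most in their response. Each line runs 5′ to 3′ toward the gene from 340 to 81 bases before the start codon (R64 assembly, RefSeq), with capitals marking the TATA box (TATA followed by A or T, then A, then A or T, then A or G), the core of the site of the glycolytic activator Gcr1 (CTTCC) and the stress response element (AGGGG), each on either strand. The positions are chrVII:23595-23854 (plus strand) for HXK2, chrVI:255130-255389 (minus strand) for HXK1, chrIII:50498-50757 (plus strand) for GLK1, chrXII:234162-234421 (minus strand) for PDC1 and chrXII:410383-410642 (plus strand) for PDC5.
HXK2: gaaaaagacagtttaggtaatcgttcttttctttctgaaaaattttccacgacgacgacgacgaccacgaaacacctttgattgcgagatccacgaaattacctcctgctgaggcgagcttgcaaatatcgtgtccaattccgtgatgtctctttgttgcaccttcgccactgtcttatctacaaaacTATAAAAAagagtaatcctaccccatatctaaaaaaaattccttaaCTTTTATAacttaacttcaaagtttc
HXK1: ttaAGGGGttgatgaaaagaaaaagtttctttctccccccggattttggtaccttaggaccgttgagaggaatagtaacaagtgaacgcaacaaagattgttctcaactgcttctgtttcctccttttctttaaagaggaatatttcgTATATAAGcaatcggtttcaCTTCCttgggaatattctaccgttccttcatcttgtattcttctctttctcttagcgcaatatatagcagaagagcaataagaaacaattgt
GLK1: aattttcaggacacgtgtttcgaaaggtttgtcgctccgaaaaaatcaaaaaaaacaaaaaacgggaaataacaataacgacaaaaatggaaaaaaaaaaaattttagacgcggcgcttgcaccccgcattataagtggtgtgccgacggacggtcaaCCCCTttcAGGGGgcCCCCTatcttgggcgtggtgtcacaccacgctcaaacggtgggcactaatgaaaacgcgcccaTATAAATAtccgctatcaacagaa
PDC1: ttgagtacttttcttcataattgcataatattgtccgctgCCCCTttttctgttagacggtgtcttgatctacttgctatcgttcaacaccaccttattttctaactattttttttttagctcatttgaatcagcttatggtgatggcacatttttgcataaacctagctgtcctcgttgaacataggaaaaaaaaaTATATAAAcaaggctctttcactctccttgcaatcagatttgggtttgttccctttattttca
PDC5: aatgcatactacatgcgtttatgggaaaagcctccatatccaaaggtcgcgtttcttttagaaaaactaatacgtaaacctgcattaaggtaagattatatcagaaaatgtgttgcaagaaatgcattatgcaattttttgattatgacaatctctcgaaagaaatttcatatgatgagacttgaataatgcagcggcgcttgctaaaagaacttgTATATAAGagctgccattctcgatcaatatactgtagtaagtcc
HXK2 showed TATA boxes only in this window, whereas GLK1 held 3 stress response elements close together between 182 and 163 bases upstream, followed by a TATA box at 104 to 97. HXK1 had a TATA box, a Gcr1 core and a stress response element in the window shown. PDC1 and PDC5 each had 1 TATA box, at 143 to 136 and 124 to 117 bases, and PDC1 also had a stress response element at 300 to 296. PDC5 had this element at 370 to 366, outside the window shown. Within 500 bases upstream, a TATA box was found in 8 of the 9 genes, PFK2 being the exception, against 52.1% of the 6000 such regions in the genome. The Gcr1 core was present in 6 of the 9 (66.1% of regions) and the stress response element in 5 of the 9 (34.1% of regions). HXK1 and GLK1 had 3 stress response elements each in this length and HXK2 had none. No match overlapped a match of another motif. A match of letters is not evidence of binding.

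The change in labelled reads after depletion of Bdf1/2 was above that of the median gene for each of the 8 tested genes on each scale used. On the size-factor scale all 8 were higher after depletion in both strains, by 0.81 to 2.43 on the log2 scale in the control strain (median 1.20) and by 0.87 to 1.73 in the ET strain (median 1.16). Over all genes tested, 14.3% were called higher and 28.7% lower in the control strain, and 12.1% higher and 30.2% lower in the ET strain. On the S. pombe scale the same genes stayed near their DMSO level, from -0.52 to 1.11 in the control strain (median -0.12) and from -0.29 to 0.59 in the ET strain (median -0.02). GLK1 was then called higher and PFK1 lower, both in the control strain, and no member was called in the ET strain (edgeR). Over all genes on the S. pombe scale 0.354% were called higher and 81.7% lower in the control strain, and 0.218% higher and 83.7% lower in the ET strain. A change of scale shifts every gene by nearly the same amount, so the distance to the median gene is not a separate result on each scale. Members lay 1.26 to 2.90 above it in the control strain on the S. pombe scale and 1.27 to 2.90 on the size-factor scale. In total reads scaled by S. pombe reads the median gene was at -1.13 in the control strain, and the 8 genes were at 0.07 to 0.57. In such bulk libraries fewer cells and less RNA per cell cannot be told apart.

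**Figure D1:**
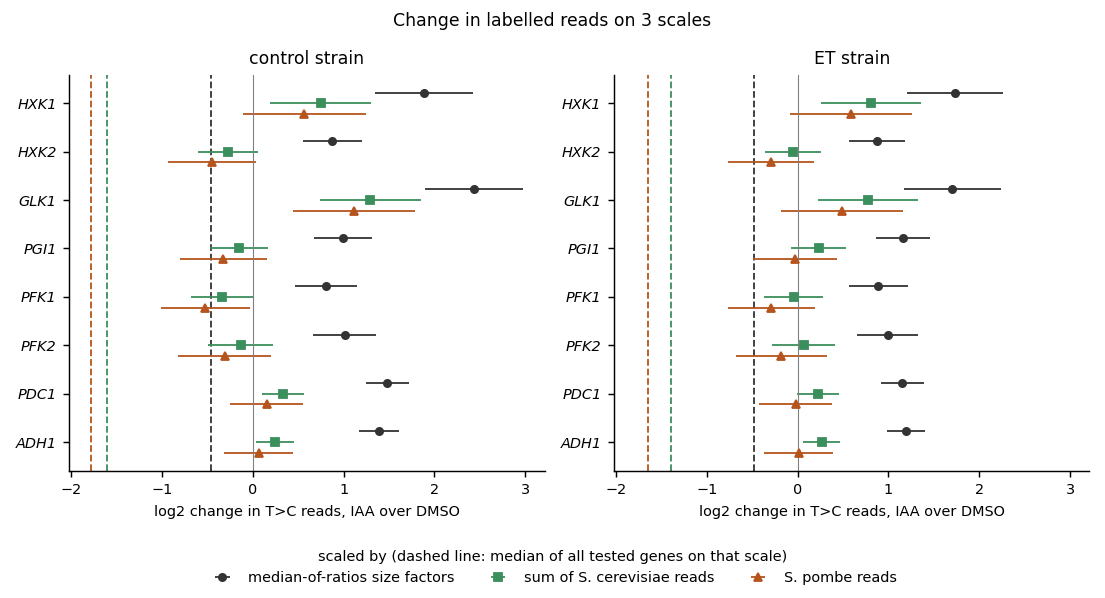
Log2 change in T>C reads after Bdf1/2 depletion (IAA over DMSO) for the 8 tested genes in the control strain (left) and the ET strain (right) on 3 scales, with 95% confidence intervals from the fit over 12 libraries. Dashed lines give the median of the 3677 genes tested on each scale, and every gene lies to the right of the line of its own colour.

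HXK2 had the highest level of the kinase genes. HXK2 had 182, 165 and 110 T>C reads in the control strain with DMSO and 100, 93 and 110 with IAA. Its counts in the ET strain were 161, 188 and 183 with DMSO and 139, 142 and 202 with IAA. On the size-factor scale these are means of 99.6 ± 17.6 and 184.4 ± 24.5 (SD, n = 3) in the control strain, a rise of 0.87 ± 0.16 (SE) on the log2 scale (edgeR, adjusted p = 7.7e-06), and the rise in the ET strain was 0.87 ± 0.16 (adjusted p = 3.0e-06). Scaled by S. pombe reads, HXK2 was at -0.45 in the control strain (adjusted p = 0.082) and at -0.29 in the ET strain (adjusted p = 0.25), and the DMSO and IAA libraries overlapped in both.

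HXK1 and GLK1, the glucose-repressed kinase genes, started low. HXK1 had 23, 45 and 17 T>C reads in the control strain with DMSO and 39, 38 and 37 with IAA, and in the ET strain 21, 36 and 24 with DMSO and 35, 45 and 53 with IAA. GLK1 had 19, 30 and 22 T>C reads with DMSO and 39, 46 and 55 with IAA in the control strain, and 19, 24 and 37 against 50, 36 and 42 in the ET strain. Even as plain counts, without any scaling, the IAA libraries of GLK1 lay above the DMSO libraries in the control strain, although the IAA libraries of that strain held fewer T>C reads in all (90321 to 121781 against 234920 to 290721). On the size-factor scale GLK1 rose by 2.43 ± 0.27 (SE) on the log2 scale in the control strain (adjusted p = 2.0e-13), which ranked it 8th of the 3677 genes tested, and by 1.71 ± 0.27 in the ET strain (adjusted p = 2.2e-07). HXK1 rose by 1.89 ± 0.27 (adjusted p = 6.9e-09) and by 1.73 ± 0.27 (adjusted p = 9.6e-08). When S. pombe reads set the scale, GLK1 rose by 1.11 ± 0.35 in the control strain (adjusted p = 0.0019), with no overlap of the groups, and was at 0.49 in the ET strain (adjusted p = 0.17). HXK1 was at 0.57 and 0.59 on that scale (adjusted p = 0.11 and 0.096). GLK1 shared 356 bases of its interval with the overlapping reading frame YCL042W on the same strand, so reads of the pair cannot be told apart there.

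Within a library the ratio of 2 genes needs no scaling. T>C reads of GLK1 came to 0.104 to 0.200 of those of HXK2 in the control strain with DMSO and to 0.390 to 0.5 with IAA. The ratio in the ET strain was 0.118 to 0.202 with DMSO and 0.208 to 0.360 with IAA. The ratio of HXK1 to HXK2 moved from 0.126 to 0.273 with DMSO to 0.336 to 0.409 with IAA in the control strain, and from 0.130 to 0.191 to 0.252 to 0.317 in the ET strain. In each of these 4 comparisons the 3 IAA libraries lay above the 3 DMSO libraries. The ratios describe these libraries and were not tested.

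PGI1, which encodes the phosphoglucose isomerase, had 169, 176 and 118 T>C reads in the control strain with DMSO and 111, 110 and 112 with IAA. Its counts in the ET strain were 154, 187 and 195 with DMSO and 179, 197 and 214 with IAA. On the size-factor scale it rose by 0.99 ± 0.16 (SE) in the control strain (adjusted p = 1.7e-07) and by 1.16 ± 0.15 in the ET strain (adjusted p = 1.9e-10). Its values on the S. pombe scale were -0.32 and -0.03 (adjusted p = 0.20 and 0.92). PGI1 shared 127 bases of its interval with YBR196C-A on the same strand.

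The genes of both phosphofructokinase subunits were called higher after depletion on the size-factor scale in both strains, whereas on the S. pombe scale only PFK1 in the control strain was called, and it was lower. PFK1 had 150, 168 and 118 T>C reads in the control strain with DMSO and 102, 70 and 108 with IAA, and PFK2 had 103, 128 and 117 against 97, 79 and 81. The ET strain gave 159, 140 and 156 against 149, 93 and 175 for PFK1, and 114, 144 and 106 against 115, 119 and 120 for PFK2. On the size-factor scale PFK1 rose by 0.81 ± 0.17 (SE) and PFK2 by 1.01 ± 0.18 in the control strain (adjusted p = 8.0e-05 and 1.2e-06), and by 0.89 ± 0.17 and 0.99 ± 0.17 in the ET strain (adjusted p = 9.1e-06 and 1.2e-06). PFK1 had the lowest rise of the 8 in the control strain, and on the S. pombe scale it was the gene called lower there, at -0.52 ± 0.25 (adjusted p = 0.046), with no overlap of the groups. PFK2 was at -0.31 on that scale (adjusted p = 0.25), and in the ET strain PFK1 was at -0.29 (adjusted p = 0.26) and PFK2 at -0.18 (adjusted p = 0.51). The PFK1 to PFK2 ratio of T>C reads overlapped between DMSO (1.01 to 1.46) and IAA (0.886 to 1.33) in the control strain.

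**Figure D2:**
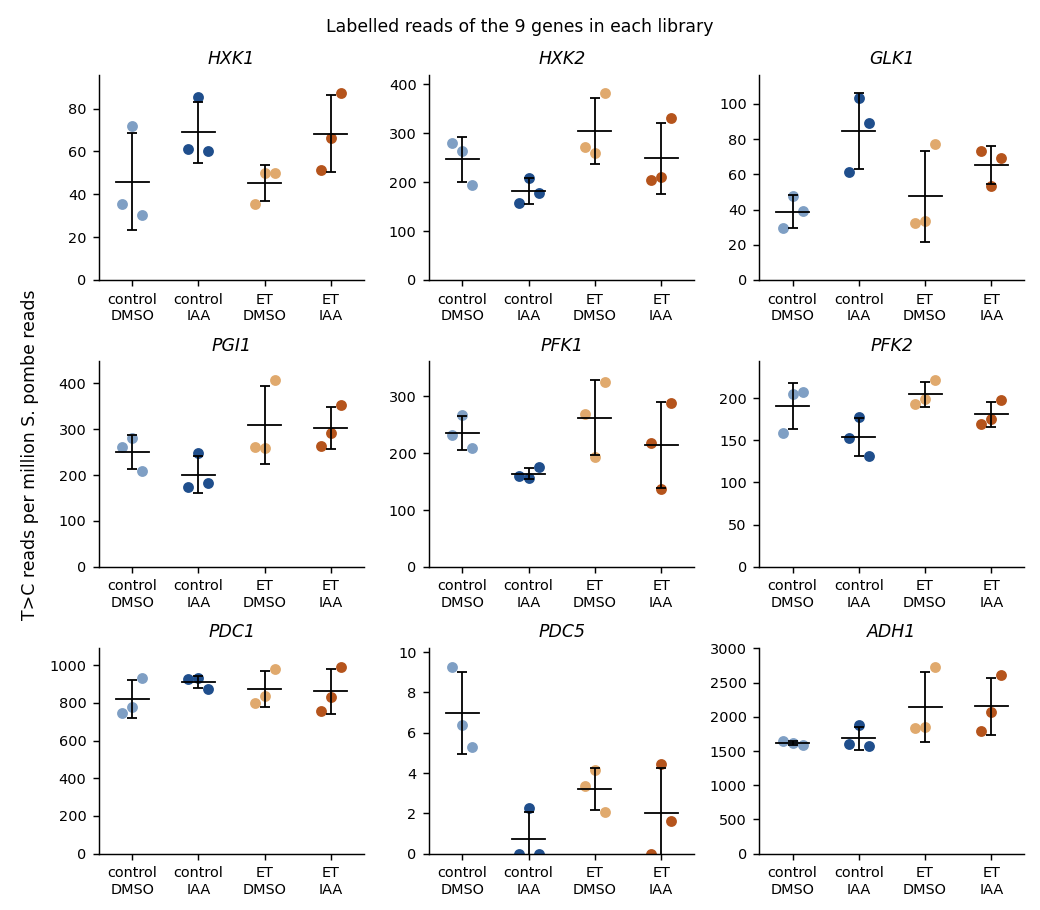
T>C reads per 1000000 S. pombe reads of the 9 genes in each of the 12 libraries (points), with the mean and SD of the 3 replicates of each group (black). GLK1 lies higher with IAA than with DMSO in the control strain and PFK1 lies lower, while the DMSO and IAA libraries of ADH1 and PDC1 overlap in both strains, and the PDC5 panel rests on 0 to 6 T>C reads a library.

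ADH1 and PDC1 had the highest labelled levels of the set. ADH1 had 1062, 1013 and 893 T>C reads in the control strain with DMSO and 1021, 838 and 967 with IAA, and in the ET strain 1083, 1340 and 1307 against 1218, 1400 and 1587. Per kilobase of interval and on the size-factor scale ADH1 was at 503 ± 11.2 (SD, n = 3) in DMSO-treated control cells, above 99.0% of the genes tested, and PDC1 at 171 ± 22.9. On the same scale HXK2 was at 58.2 ± 10.3, PGI1 at 52.8 ± 6.97, PFK1 at 29.7 ± 3.13, PFK2 at 24.6 ± 3.43, HXK1 at 10.8 ± 5.10 and GLK1 at 8.92 ± 2.0 per kilobase, with PDC5 lowest at 1.46 ± 0.431. HXK2 and PGI1, PFK1 and PFK2, and HXK1 and GLK1 were neighbours in this order whose ranges of mean ± SD overlapped. With IAA in the control strain GLK1 was at 49.1 ± 12.2 and PFK2 at 49.8 ± 6.13, so that GLK1 had moved from the lowest place among the tested members to the level of the phosphofructokinase genes.

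ADH1 rose by 1.39 ± 0.11 (SE) on the size-factor scale in the control strain (adjusted p = 1.5e-22) and by 1.19 ± 0.11 in the ET strain (adjusted p = 2.4e-18). With S. pombe scaling its value was 0.06 in the control strain and 0.01 in the ET strain (adjusted p = 0.77 and 0.95). PDC1 had 483, 489 and 526 T>C reads with DMSO and 591, 414 and 537 with IAA in the control strain, and 473, 605 and 469 against 517, 563 and 602 in the ET strain. It rose by 1.48 ± 0.12 on the size-factor scale in the control strain (adjusted p = 1.0e-21) and by 1.15 ± 0.12 in the ET strain (adjusted p = 7.2e-15), and was at 0.15 and -0.02 on the S. pombe scale (adjusted p = 0.49 and 0.93).

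PDC5, the reserve decarboxylase gene, was close to silent, and its few counts did not follow those of PDC1. It had 6, 4 and 3 T>C reads in the control strain with DMSO and 0, 1 and 0 with IAA, and 2, 3 and 1 against 0, 3 and 1 in the ET strain. Its total reads were 63, 64 and 40 with DMSO and 26, 24 and 26 with IAA in the control strain. In the ET strain they were 63, 75 and 43 with DMSO and 38, 38 and 41 with IAA. In reads per 1000000 S. pombe reads this is 90.1 ± 16.8 (SD, n = 3) against 45.7 ± 7.19 in the control strain and 100.0 ± 8.95 against 59.8 ± 6.64 in the ET strain, with no overlap of the groups in either. In a fit of total reads over the 5240 genes with at least 10 reads in every library, chosen after the counts had been seen, PDC5 fell by 1.00 ± 0.30 (SE) on the log2 scale in the control strain (adjusted p = 0.0011) and by 0.75 ± 0.28 in the ET strain (adjusted p = 0.0096). In that fit 78% of genes were called lower in the control strain and 79.4% in the ET strain, so the fall of PDC5 was that of most genes. The loci of PDC1 and PDC5 were 87.2% identical and the 250 bases downstream of them 47.5%. Multimapping reads at PDC5 numbered 0 or 1 in a library. Whether reads of either copy were counted at the other was not tested, so the low PDC5 values remain uncertain. Total reads of PDC5 came to at most 0.0022 of those of PDC1 in any library.

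In total reads, 2 of the 8 tested genes were called higher and 0 lower in the control strain on the S. pombe scale, against 2.2% and 74.2% of all genes tested. HXK1 had 2916, 3012 and 2756 reads per 1000000 S. pombe reads with DMSO and 4218, 4784 and 3870 with IAA, a rise of 0.57 ± 0.16 (SE) on the log2 scale (adjusted p = 0.00073). GLK1 had 2885, 3157 and 3085 with DMSO and 4360, 4824 and 4177 with IAA, a rise of 0.55 ± 0.16 (adjusted p = 0.0011). The 3 IAA libraries lay above the 3 DMSO libraries for both genes. The other 6 were at 0.07 to 0.27, with adjusted p between 0.092 and 0.69. Of these PDC1 was at 0.27, its IAA libraries lay above its DMSO libraries, and it passed the threshold without replicate C of the IAA-treated ET cells (0.27, adjusted p = 0.035). For the ET strain no member was called in either direction, where 0.979% of all genes were called higher and 75.8% lower (edgeR without a block, 0 of 8 members at an unadjusted p under 0.05). HXK1 was at 0.26 and GLK1 at 0.22 in that strain. HXK1 had 2217, 3033 and 4278 reads with DMSO in replicates A, B and C and 3678, 3342 and 4379 with IAA, and GLK1 had 2413, 2727 and 3637 against 3287, 2842 and 4106, so that the groups overlapped but the IAA library lay above the DMSO library of the same letter in each pair. Same-letter libraries of the ET strain correlated by 0.22 to 0.31 in total reads. Libraries that differed in both letter and strain correlated by up to 0.34, so pairing by letter is not shown. With the replicate block within strain, added after the data had been seen, HXK1 rose by 0.30 ± 0.11 (SE, adjusted p = 0.016) and GLK1 by 0.23 ± 0.084 (adjusted p = 0.020). The share of all genes called with that block was not counted, and the median gene was at -1.04 there. Without replicate C of the DMSO-treated ET cells, the library with the most S. cerevisiae reads per spike-in read, HXK1 was at 0.53 (adjusted p = 0.0020) and GLK1 at 0.41 (adjusted p = 0.019).

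**Figure D3:**
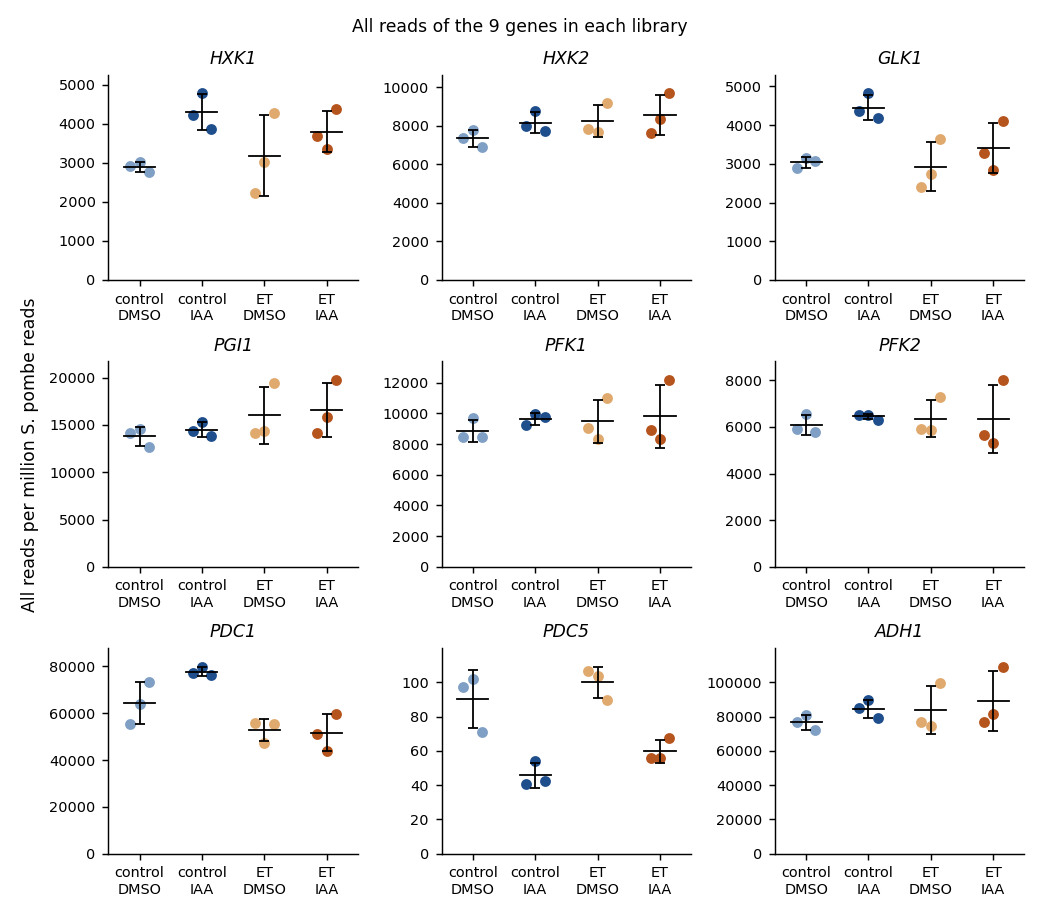
All reads per 1000000 S. pombe reads of the 9 genes in each of the 12 libraries (points), with the mean and SD of the 3 replicates of each group (black). HXK1 and GLK1 lie higher with IAA than with DMSO in the control strain, PDC5 lies lower with IAA in both strains, and with IAA the PDC1 points of the ET strain lie below those of the control strain.

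The set was also placed against genes with similar amounts of labelled RNA. Among the 327 other genes with a mean of at least 100 normalised T>C reads, the median change on the S. pombe scale was -0.87 in the control strain, with the 10th to 90th percentile from -1.49 to -0.21, and -0.82 in the ET strain. ADH1 and PDC1 lay above that range in the control strain, and HXK2, PGI1, PFK1 and PFK2 lay between its median and its upper end. The 90th percentile in the ET strain was -0.31, and these 6 genes, at -0.29 to 0.01, all lay above it. HXK2 and PFK1, both at -0.29, were close to it. In total reads the median of those 327 genes was -0.06 in the control strain, with a 90th percentile of 0.21, and ADH1, HXK2, PGI1, PFK1 and PFK2 lay between these values, with PDC1 at 0.27 above them. HXK1 and GLK1 had fewer than 100 normalised T>C reads on average and were not part of this comparison. The mean was taken over all 12 libraries, so the IAA groups helped decide which genes were included. PFK1 (95.5 in the control strain and 95.4 in the ET strain) and PFK2 (77.0 and 75.1) averaged under 100 with DMSO. Both entered through their IAA groups, so the comparison is a description and not a test.

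**Figure D4:**
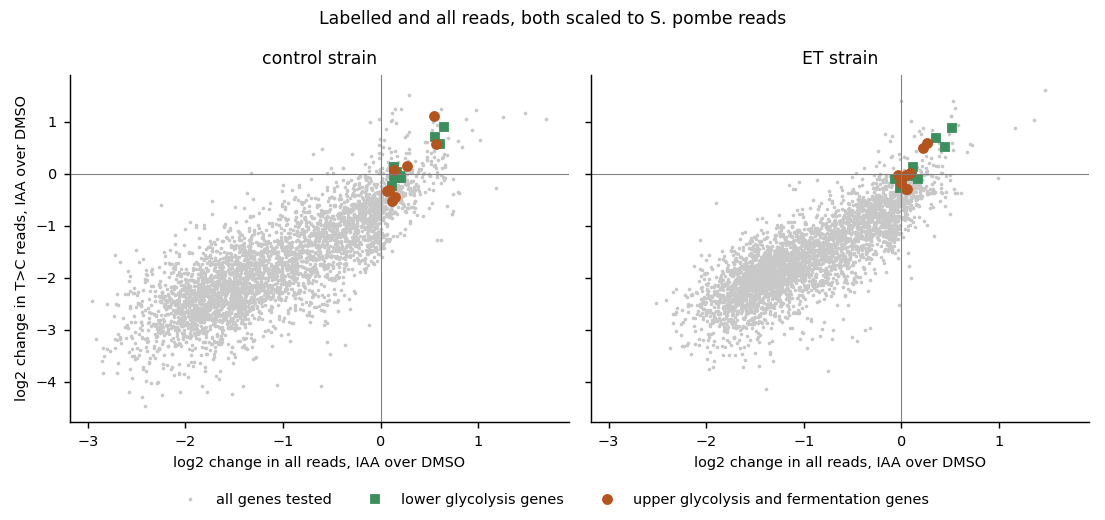
Log2 change in T>C reads (vertical) against log2 change in all reads (horizontal) after Bdf1/2 depletion, both scaled to S. pombe reads, for each of the 3677 genes tested (grey) in the control strain (left) and the ET strain (right). The 8 tested genes of upper glycolysis and fermentation (circles) and 10 of lower glycolysis (squares) lie toward the upper right of the cloud in both strains, most of them near 0 on both axes.

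The labelled share, the percent of a gene's reads that are T>C reads, uses neither scale. It was low for these genes in the control strain with DMSO, from 1.27 ± 0.25% (SD, n = 3) for GLK1 to 3.34 ± 0.49% for HXK2 among the 8 tested, where the median gene had 5.92%. After depletion the median gene's share was 3.80%. In the control strain 4 of the 8 genes had a lower share after depletion and 0 a higher one, against 38.5% and 0.136% of all genes. HXK2 went from 3.81, 3.39 and 2.83% to 1.97, 2.38 and 2.31%, a fall of 0.60 on the log2 scale (adjusted p = 0.00057). PFK1 went from 2.74, 2.77 and 2.48% to 1.74, 1.58 and 1.80%, a fall of 0.64 (adjusted p = 0.00038). For both genes the 3 IAA libraries lay below the 3 DMSO libraries. PGI1 was at -0.40 (adjusted p = 0.022), a call that was lost without DMSO replicate A or B or IAA replicate A or C of the control strain (-0.39 to -0.32). PFK2 was at -0.40 (adjusted p = 0.043), and its call was lost without DMSO replicate B or C or IAA replicate A or C of the same strain (-0.40 to -0.30).

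ADH1 and PDC1 kept shares within 0.13 of their DMSO values on the log2 scale in the control strain. ADH1 had 2.13, 2.01 and 2.19% with DMSO and 1.89, 2.10 and 1.99% with IAA, and was at -0.08 with a 95% confidence interval of -0.26 to 0.09 (adjusted p = 0.46). PDC1 had 1.35, 1.22 and 1.27% against 1.20, 1.17 and 1.14%, and was at -0.13 (interval -0.33 to 0.08, adjusted p = 0.33), although its groups did not overlap. GLK1 was the gene with the highest value, at 0.56 (interval 0.05 to 1.08, adjusted p = 0.073), and had 1.02, 1.52 and 1.26% with DMSO and 1.41, 2.14 and 2.14% with IAA. Without IAA replicate A of the control strain it passed the threshold (0.75, adjusted p = 0.035). HXK1 was at 0.00, and its replicate B with DMSO, at 2.38%, stood above the other DMSO libraries at 1.22 and 1.09%.

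Fewer members were called in share in the ET strain. Only HXK2 was called, with a fall of 0.35 (adjusted p = 0.040), against 38.3% of all genes called lower, and the call was lost without DMSO replicate C or IAA replicate A or B of the ET strain (-0.30 to -0.25). PFK1 was at -0.34 (adjusted p = 0.060), passed the threshold without DMSO replicate B or IAA replicate A or C (-0.45 to -0.41), and the other 6 genes between -0.16 and 0.30. Whether the response of a gene differed between the strains was tested as an interaction, and 0 of the 8 genes were called in T>C reads, total reads or labelled share, against 0.109%, 0% and 0% of all genes (edgeR, 0 of the 8 at an unadjusted p under 0.05 in each, and DESeq2 called 0 of the 8 for T>C reads). The widest interval in T>C reads was that of GLK1, -1.50 to 0.04 around -0.73, and PDC1 was at -0.33 (interval -0.66 to 0.00).

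**Figure D5:**
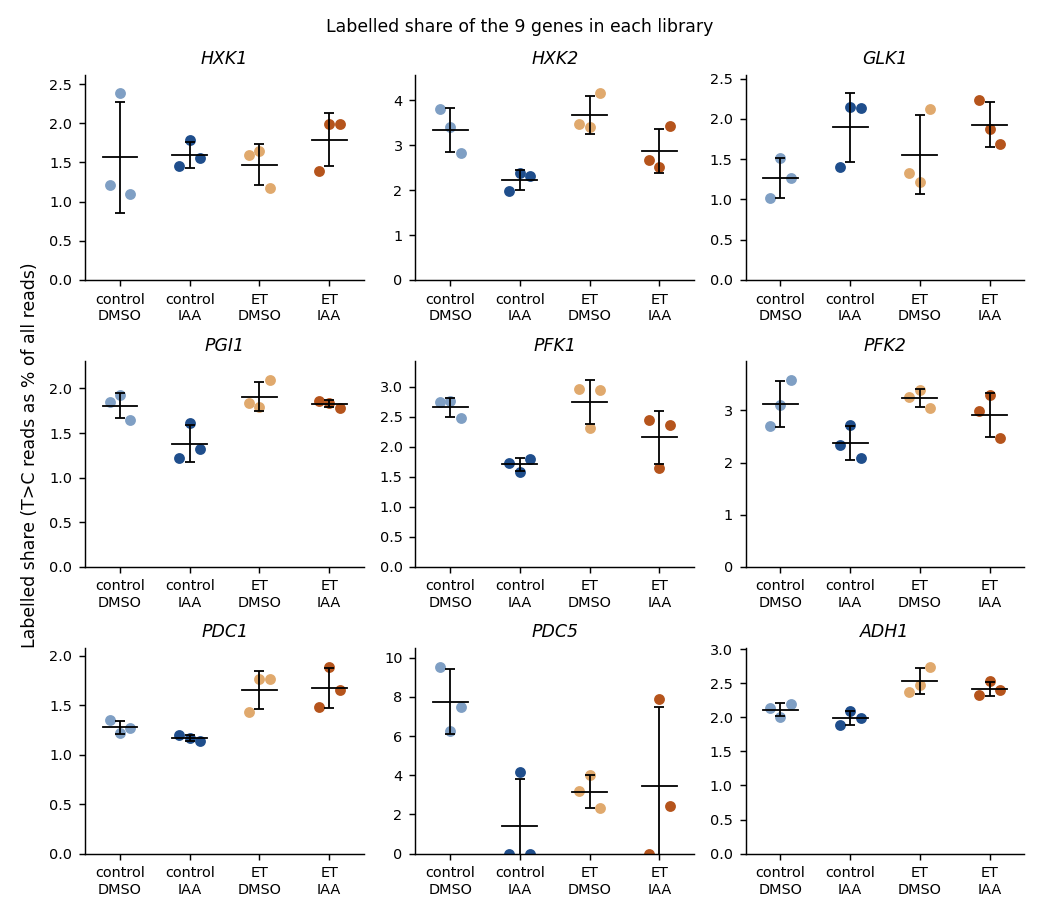
Labelled share, T>C reads as a percent of all reads, of the 9 genes in each of the 12 libraries (points), with the mean and SD of the 3 replicates of each group (black). HXK2, PGI1 and PFK1 lie lower with IAA in the control strain, and with either treatment the PDC1 and ADH1 points of the ET strain lie above those of the control strain.

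With Bdf1/2 present no difference between the strains was called among the members. With DMSO 0 of the 8 tested genes were called in T>C reads, total reads or labelled share, against 0.163%, 0.354% and 0.435% of all genes (edgeR, with 1, 0 and 2 of the 8 at an unadjusted p under 0.05, and 0 of the 8 by DESeq2 for T>C reads). ADH1 in T>C reads was at 0.24 (interval 0.03 to 0.45, adjusted p = 0.37) and PDC1 in labelled share at 0.37 (interval 0.17 to 0.57, adjusted p = 0.056), both higher in the ET strain.

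After depletion a difference between the strains was called in PDC1, but its response to depletion was not called different between them. With DMSO its total reads per 1000000 S. pombe reads averaged 64298.5 ± 9095 (SD, n = 3) in the control strain. In the ET strain they averaged 52838 ± 4763 with DMSO, with overlapping libraries and no call. After depletion they were 77138, 79776 and 76228 in the control strain and 51177, 43993 and 59725 in the ET strain. This difference of -0.59 ± 0.15 (SE) on the log2 scale (ET minus control, adjusted p = 0.0059) was the only one called among the 8 genes, where 1.99% of all genes were called lower in the ET strain, and it missed the threshold without replicate B of the IAA-treated ET cells (-0.49, adjusted p = 0.075). GLK1 was at -0.38 (adjusted p = 0.079), with no overlap of the groups, and passed the threshold without DMSO replicate C (adjusted p = 0.039) or IAA replicate C (-0.54, adjusted p = 0.021) of the ET strain. The labelled share of PDC1 went the other way, with 1.20, 1.17 and 1.14% in the control strain and 1.48, 1.89 and 1.66% in the ET strain, higher by 0.52 ± 0.10 (adjusted p = 0.00014). ADH1 had a share higher by 0.28 ± 0.09 (adjusted p = 0.044), which was not called in 8 of 12 fits with a library left out (each control library, and IAA replicates B and C of the ET strain, 0.25 to 0.32). Over all genes the share was called higher in 4.32%, and the median gene was higher by 0.28, so the value of ADH1 equalled that of the median gene. In T>C reads on the size-factor scale 0 of the 8 were called by edgeR (2 at an unadjusted p under 0.05) against 1.28% of all genes, with PDC1 at -0.38 (adjusted p = 0.073) and GLK1 at -0.64 (adjusted p = 0.20). DESeq2 on the same size factors called PDC1 (-0.38, adjusted p = 0.029).

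Other genes of the pathway were counted as whole lists. Of the 11 genes of lower glycolysis 10 were tested, and on the size-factor scale all 10 were higher after depletion in both strains, with medians of 1.33 and 1.14. Over all genes tested 14.3% and 12.1% were called higher on that scale. Scaled by S. pombe reads, 2 of the 10 were higher in each strain and 0 lower: TDH2, a glyceraldehyde-3-phosphate dehydrogenase gene, at 0.89 and 0.87, and ENO1, an enolase gene, at 0.71 and 0.68. Of all genes 0.354% and 0.218% were called higher and 81.7% and 83.7% lower on the S. pombe scale. PYK2, the minor pyruvate kinase gene, had 0 to 5 T>C reads and was not tested. The medians of the upper and lower parts of the pathway were -0.12 and -0.0027 in the control strain on the S. pombe scale.

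Among the other decarboxylases and dehydrogenases of the lists, 5 of 9 genes were tested. ADH6, SFA1 and ALD6 were higher on the size-factor scale in both strains (0.57 to 0.80), but on the S. pombe scale the direction turned, and 4 of the 5 in the control strain and 5 of the 5 in the ET strain were called lower, where 81.7% and 83.7% of all genes were. Their medians on that scale, -0.56 and -0.60, lay above those of all genes, -1.78 and -1.64. The paralogs ADH2, with 0 T>C reads in every library, PDC6, with 0 to 2, and ADH5, with 0 to 9, were not tested. EMI2, the paralog of GLK1, was at 0.54 in the control strain (adjusted p = 0.39) and rose by 1.11 in the ET strain (adjusted p = 0.041) on the size-factor scale, and it was at -0.76 and -0.05 on the S. pombe scale, called in neither. PFK26, whose product makes the activator of phosphofructokinase, fell by 2.03 in the control strain on the size-factor scale (adjusted p = 0.021) and was at 0.86 in the ET strain (adjusted p = 0.14). With S. pombe scaling it was at -3.29 ± 0.72 (SE, adjusted p = 1.4e-05) and -0.28 ± 0.53 (adjusted p = 0.62). Among the 3 tested genes that control the hexokinase and phosphofructokinase steps, 0 were called for a difference in response between the strains (size-factor scale).

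The genes for regulators of the pathway went in both directions. Of the 8 tested, 5 were lower and 1 higher in the control strain on the size-factor scale, and 0 lower and 1 higher in the ET strain. Over all genes 28.7% were called lower and 14.3% higher in the control strain, and 30.2% and 12.1% in the ET strain. On this scale 0 of the 8 were called for a difference in response between the strains, and 0 between the strains after depletion. GCR1, the activator of glycolytic genes, was the higher one in both strains (1.52 and 1.17), and it was at 0.19 and 0.01 on the S. pombe scale, called in neither. GCR2, its partner, was at -1.16 (adjusted p = 0.0014) and -0.44 (adjusted p = 0.15) on the size-factor scale, and SNF1, the kinase that relieves glucose repression, at -1.42 (adjusted p = 0.027) and -0.94 (adjusted p = 0.052). With S. pombe scaling 6 of the 8 were lower in the control strain and 7 in the ET strain, counts near the share of all genes called lower there (81.7% and 83.7%). In the pentose phosphate and glycerol branches 10 of 11 genes were tested, and 5 were higher and 1 lower in the control strain on the size-factor scale, and 7 higher and 0 lower in the ET strain. All genes were called higher in 14.3% and 12.1% on that scale and lower in 28.7% and 30.2%. ZWF1, which opens the pentose phosphate branch, rose by 1.35 and RKI1, an isomerase gene of that branch, fell by 1.67 in the control strain. On the S. pombe scale 0 of the 10 were higher in either strain and 5 and 4 were lower, against 81.7% and 83.7% of all genes.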

How the data were processed

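The members and gene lists were chosen with earlier results of these data known. Per the study's methods, the authors trimmed the reads of 3′ mRNA libraries with fastp (version 0.23.2) and bbduk and then counted with SLAM-DUNK, release 0.4.3, on the R64 and S. pombe (ASM294v2) genomes. The deposited tables give whole-number counts per gene interval, with no normalization: all reads, T>C reads with at least 2 conversions, and multimapping reads. Of 6398 intervals checked, 6396 ran from the annotated start to 250 bases past the end. Multimapping reads were 0.208% to 1.08% of the reads of the members other than PDC5.

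T>C counts were fitted with edgeR 4.0.16 (quasi-likelihood, prior count 0.125, R 4.3.3) with 4 group means over 12 libraries and size factors from all S. cerevisiae reads. Total reads were fitted with S. pombe read sums as offsets, and labelled shares with each gene's own reads as offset. P-values were two-sided and Benjamini-Hochberg adjusted over 3677 genes, with a threshold of 0.05. The fits were tested on simulated counts. In total reads the deviations of same-letter libraries of the ET strain correlated by 0.31, 0.22 and 0.28, over the 0.1 taken to mark pairs. Libraries that differed in both letter and strain correlated by -0.20 to 0.34, so these values do not show that the letters mark pairs. Alternatives used DESeq2 1.42.0, other scalings, filters and replicate settings. All 9 members were named whatever their values. Beyond members, BDF1, TRP1, paralogs of members and, per list and depletion contrast, the top 2 called genes in each direction could be named. Total counts set the precision: 0 to 6 T>C reads for PDC5 and 838 to 1587 for ADH1. Scripts used Python 3.11.15, pandas 2.3.3 and Biopython 1.88.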

Additional observations from a re-analysis of the deposited data

How the results depend on the processing

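The calls of higher T>C reads after depletion held for all 8 tested genes in both strains with TMM factors, with DESeq2, with both other filters, with the replicate block (8 and 8 genes) and with each of the 12 libraries left out. Apart from TMM, these fits took size factors in the same way, so they could not show a dependence on the scale. TMM factors from T>C counts put the median gene at -0.09 in the control strain, against -0.46, which raises the members too. The share of all genes called was not counted for these settings. The calls did not hold when read sums set the scale. Scaling by the summed S. cerevisiae reads called 4 genes higher in the control strain and 3 in the ET strain (0.925% and 0.789% of all genes), and scaling by S. pombe reads called 1 and 0, with 1 lower in the control strain. The sign turned with the sum of S. cerevisiae reads for HXK2 (-0.28), PGI1 (-0.15), PFK1 (-0.34) and PFK2 (-0.13) in the control strain, and for HXK2 (-0.052) and PFK1 (-0.041) in the ET strain. It turned with S. pombe reads for HXK2 (-0.45), PGI1 (-0.32), PFK1 (-0.52) and PFK2 (-0.31) in the control strain, and for HXK2 (-0.29), PGI1 (-0.027), PFK1 (-0.29), PFK2 (-0.18) and PDC1 (-0.019) in the ET strain. The scales differ by construction in what they hold constant, and the median gene shifted by -1.32 between size factors and S. pombe reads in the control strain.

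For total reads, size factors and the sum of S. cerevisiae reads each called 8 of 8 genes higher in both strains, where size factors called 47.8% of all genes higher in the control strain and 44.9% in the ET strain, and the sum of reads 8.97% and 8.87%. PFK2 and PDC1 in the ET strain then turned from below 0 to 1.16 and 1.14 with size factors and to 0.23 and 0.21 with the sum of reads. The added fit called 1 gene, PDC5, lower in each strain. After depletion, total reads lower in the ET strain were called for 6 genes with size factors, where HXK2 (-0.23) and PFK1 (-0.28) turned sign, for 2 with the sum of reads and for 2, PDC1 and GLK1 (-0.40, adjusted p = 0.048), with the replicate block over all libraries. T>C reads there gave 2 genes higher with the sum of reads, and 2 lower with TMM factors and 1 with DESeq2. The share of all genes called was not counted for these fits between the strains, so these counts do not set the members apart. In total reads between the strains after depletion, the median gene was at 0.26 in the main fit and at -0.05 with size factors. Conversions per covered T called 1 gene, GLK1, with a higher share in the control strain (0.68, adjusted p = 0.042).

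With a library left out, total reads gave 2 to 3 genes higher in the control strain, 0 to 2 higher in the ET strain and 0 to 2 lower between strains after depletion. Shares gave 0 to 1 genes higher and 2 to 4 lower in the control strain, 0 to 2 lower in the ET strain, 0 to 1 higher between strains with DMSO and 1 to 3 after depletion. In these fits the share of all genes called was not counted, so the ranges do not set the members apart. Same-letter libraries of a strain correlated by -0.01 to 0.05 in T>C reads over 6 pairs and by -0.22 to 0.07 in total reads of the control strain, and so were not taken as pairs there. The replicate block within strain called 2 genes higher in total reads in the ET strain, where pairing by letter is not shown. In the control strain it called 3, where PDC1 was added (0.28, adjusted p = 0.015). The share of all genes called higher with this block was not counted. The few T>C reads of PDC5, HXK1 and GLK1 limit the precision there. Single-gene values other than those given here had the same sign in every alternative in which they or the main value were past the threshold.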
